A study of Mus musculus with 16 samples.

Results

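The 6 genes *Pomc*, *Pax7*, *Pcsk2*, *Tbx19*, *Crhr1* and *Avpr1b*, which mark the corticotrophs and melanotrophs of the pituitary, were taken by name from the 17362 genes listed for this tissue, and all 6 were present. *Pomc* encodes proopiomelanocortin, the precursor that corticotrophs of the anterior lobe process to adrenocorticotropic hormone (ACTH) and that melanotrophs of the intermediate lobe process further to melanocyte-stimulating hormone. *Tbx19* encodes the T-box transcription factor (Tpit) that both cell types need to express *Pomc*, whereas *Pax7* encodes the pioneer factor that sets melanotroph identity, and *Pcsk2* encodes the prohormone convertase that cuts ACTH into smaller peptides in melanotrophs. *Crhr1* and *Avpr1b* encode the receptors through which hypothalamic corticotropin-releasing hormone and vasopressin drive corticotrophs.

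The pituitary glands of 16 females aged 27 weeks, which formed 4 groups of 4 mice, were each made into 1 RNA library. Controls carried the floxed allele *Esr1*fl/fl, and mutants (*Esr1*Nkx2-1Cre) also carried a Cre driven by *Nkx2-1*, which removes *Esr1*, the oestrogen receptor gene, wherever *Nkx2-1* was once active, and the labels do not say which pituitary cells that includes. Mice of both genotypes were fed either chow or a high-fat diet (HFD), the HFD for 17 weeks. The labels do not say whether all lobes of each gland were taken. Where both are present, *Pomc* is read from the anterior and the intermediate lobe together. A smaller share of a lobe, fewer cells of a type and less RNA per cell cannot be told apart.

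Levels are the authors' normalized expression values, whose exact normalization is not stated. The steps between low values are those of reads per length of transcript, and levels are compared between genes on that reading. They summed to between 908897 and 1335782 per mouse. The deleted gene *Esr1* was between 29.0 and 46.6 in controls on chow and between 10.02 and 22.2 in mutants on chow, and it was between 23.6 and 43.4 in controls on HFD and between 21.5 and 33.4 in mutants on HFD, where the genotypes overlapped. In 3 mice *Pomc*, *Pax7* and *Pcsk2* stood apart, and mice are named here by their animal numbers where this matters. P357, a mutant on chow, had the lowest *Esr1* value, 533 genes listed at 0 (96 to 310 in the other mice) and a sum of mitochondrial genes of 119409 (32247 to 49368 in the other mice). P391, a control on HFD, had the lowest share of *Prl*, the prolactin gene (28.8% of the sum), and P392, also a control on HFD, had the highest (40.6%). For the genes taken by name, many group differences and correlations are given with and without P357 and P392, and some also without P391. Group differences of other single genes are given only with these mice included.

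Promoter sequences from RefSeq (GRCm38.p6) were found for 5 of the 6 genes, *Avpr1b* being the exception, and the 250 bases before the start site are shown for *Pomc*, *Pcsk2* and *Tbx19*, because the first pair moved together from mouse to mouse and the third encodes a *Pomc* activator. Capitals mark, on either strand, the core promoter element TATAAA, the T-box half-site AGGTGT, the homeodomain core TAAT and the nuclear receptor half-site AGGTCA. The windows lie at chr12:3954695-3954944 (plus strand), chr2:143545883-143546132 (plus strand) and chr1:165160774-165161023 (minus strand), in that order.
Pomc: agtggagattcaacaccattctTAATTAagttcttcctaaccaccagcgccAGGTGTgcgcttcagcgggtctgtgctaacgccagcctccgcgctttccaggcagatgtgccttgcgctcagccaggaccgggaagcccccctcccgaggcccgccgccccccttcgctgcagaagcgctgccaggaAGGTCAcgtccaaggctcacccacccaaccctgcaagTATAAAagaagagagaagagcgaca
Pcsk2: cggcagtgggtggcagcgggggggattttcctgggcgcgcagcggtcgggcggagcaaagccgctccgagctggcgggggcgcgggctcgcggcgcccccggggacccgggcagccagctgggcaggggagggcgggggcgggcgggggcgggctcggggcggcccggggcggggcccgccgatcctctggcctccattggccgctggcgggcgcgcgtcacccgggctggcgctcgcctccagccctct
Tbx19: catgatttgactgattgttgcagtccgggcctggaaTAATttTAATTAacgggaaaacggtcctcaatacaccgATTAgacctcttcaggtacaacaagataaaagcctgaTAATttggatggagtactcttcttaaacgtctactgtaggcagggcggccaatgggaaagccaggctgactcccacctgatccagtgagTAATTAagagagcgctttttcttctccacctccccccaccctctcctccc
The *Pomc* window held 1 TATAAA beginning 25 bases before the start site, 1 AGGTCA at 62 bases, 1 AGGTGT at 199 bases and 2 overlapping TAAT at 226 and 228 bases. Of 32851 mouse promoters of the same length, 12.4% held TATAAA, 14.02% held AGGTCA, 11.8% held AGGTGT and 54.9% held TAAT. The *Tbx19* window held 7 TAAT and none of the other 3 motifs, and the *Pcsk2* window held none of the 4. An E-box (CANNTG), present in 66.2% of promoters, was found 2 times for *Pomc*, once overlapping the AGGTGT, and 1 time each for *Tbx19* and *Pcsk2*. The *Pcsk2* window was 82.4% G and C, that of *Pomc* 60% and that of *Tbx19* 47.6%, against a median of 52.4% over all promoters. These matches describe the letters of the windows and were not tested against the expression values.

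*Pomc* (ENSMUSG00000020660, chr12:3954951-3960642 of GRCm38) was by far the most abundant of the 6, with a median of 14611 over the 16 mice and between 0.124% and 4.63% of the summed expression of a gland. The medians of the others were 69.0 for *Pcsk2* (ENSMUSG00000027419, chr2:143546156-143816285), 29.7 for *Tbx19* (ENSMUSG00000026572, chr1:165137855-165160773), 6.45 for *Pax7* (ENSMUSG00000028736, chr4:139737062-139833528), 4.12 for *Crhr1* (ENSMUSG00000018634, chr11:104132855-104175523) and 1.78 for *Avpr1b* (ENSMUSG00000026432, chr1:131599239-131612000). Within a mouse the order was stable. *Pomc* exceeded *Pcsk2*, *Tbx19* exceeded *Pax7* and *Crhr1* exceeded *Avpr1b* in 16 of 16 mice, *Pcsk2* exceeded *Tbx19* in 15, and *Pax7* exceeded *Crhr1* in 14. The exceptions came from P357, in which both orders were turned, and P392, in which *Pax7* lay under *Crhr1*. The exons of *Pcsk2* overlap the antisense genes *Pcsk2os1* and *Pcsk2os2*, and as the use of strand is not stated in the sources used here, reads of the gene and its antisense partners cannot be told apart.

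The intermediate lobe genes varied widely between mice of the same group. *Pax7* was 4.804, 6.86, 6.46 and 7.38 in controls on chow and 0.132, 6.32, 4.89 and 4.58 in mutants on chow. It was 6.44, 5.37, 13.5 and 1.16 in controls on HFD and 8.32, 9.78, 6.91 and 7.19 in mutants on HFD. The lowest value was that of P357, the next lowest (1.16) was that of P392 and the highest was that of P391, while the other 13 mice stayed between 4.58 and 9.78. *Pcsk2* was 52.3, 66.3, 66.1 and 77.0 in controls on chow and 11.0, 70.7, 59.3 and 67.7 in mutants on chow. On HFD it was 65.9, 70.3, 151 and 30.2 in controls and 138, 114, 84.4 and 93.9 in mutants. The same 3 mice were at the extremes of *Pcsk2*, in the same order. *Pcsk2* in P357 was 15.6% of the median of the other 13 mice, however, where *Pax7* was 2.04% of it, so that the ratio of *Pcsk2* to *Pax7* was 83.3 in P357 and 26.0 in P392, against 9.65 to 16.5 in the other 14 mice.

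*Pomc* showed the pattern of the intermediate lobe genes. Its level was 11506, 12434, 16132 and 17362 in controls on chow, and 1654, 15105, 13654 and 12270 in mutants on chow. In controls on HFD it was 15453, 11234, 42042 and 3443, and in mutants on HFD it was 21999, 21792, 14118 and 19696. P357 was again lowest (10.9% of the median of the other 13 mice), P392 next (22.8%) and P391 highest (2.78-fold). The group means were 14359 ± 2829 in controls and 10671 ± 6122 in mutants on chow, and 18043 ± 16755 and 19401 ± 3673 on HFD (SD, n = 4). Mice of 1 group thus lay far apart, P391 from P392 among controls on HFD, and P357 from the other 3 mutants on chow.

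**Figure D1:**
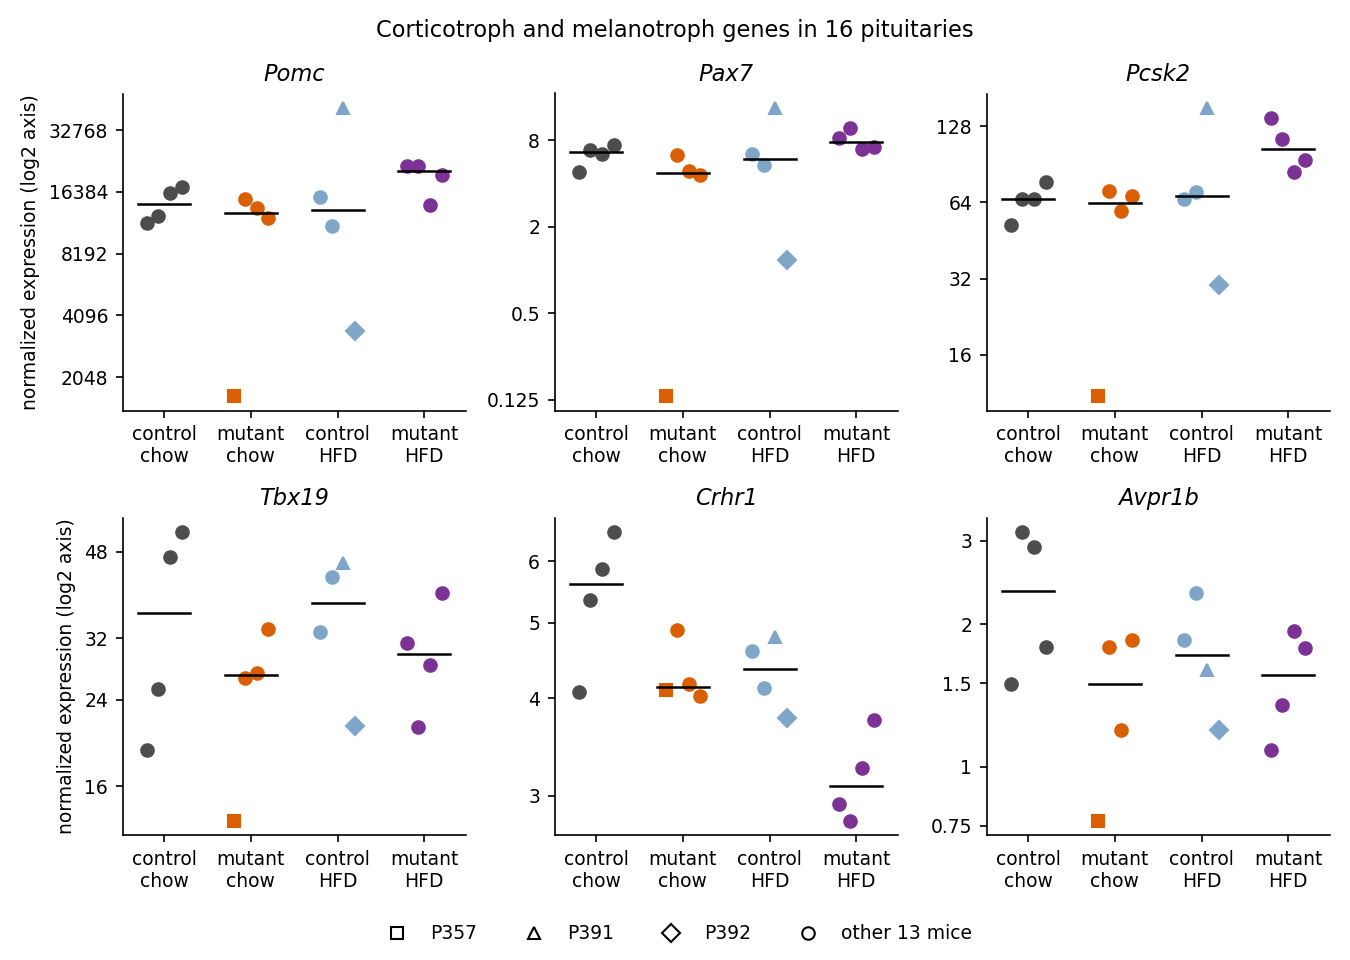
Normalized expression (log2 axis) of each gene in the 4 groups, 1 point per mouse, with the median of the 4 mice as a line. P357 (square), P391 (triangle) and P392 (diamond) hold the extremes of *Pomc*, *Pax7* and *Pcsk2*, whereas for *Crhr1* they sit inside the range of the other mice.

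*Tbx19* moved with *Pomc* to a lesser degree. It was 19.0, 25.2, 46.8 and 52.5 in controls on chow, 13.6, 26.6, 27.2 and 33.4 in mutants on chow, 33.0, 42.6, 45.5 and 21.2 in controls on HFD and 31.3, 21.2, 28.2 and 39.5 in mutants on HFD. P357 had the lowest value, at 43.5% of the median of the other 13 mice, but P392 (67.9%) lay within their range and the highest values were those of controls on chow. The groups overlapped in every comparison.

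*Crhr1* did not share the pattern of the 3 mice, and *Avpr1b* shared only the low value of P357. *Crhr1* was 4.07, 5.35, 5.87 and 6.53 in controls on chow, 4.11, 4.90, 4.18 and 4.03 in mutants on chow, 4.61, 4.12, 4.798 and 3.78 in controls on HFD and 2.93, 2.79, 3.25 and 3.75 in mutants on HFD. P357 was at 99.5% of the median of the other 13 mice, P392 at 91.7% and P391 at 1.16-fold, and its 4 lowest values were those of the 4 mutants on HFD. The group means of *Crhr1* were 5.45 ± 1.04 in controls and 4.30 ± 0.402 in mutants on chow, and 4.33 ± 0.461 and 3.18 ± 0.429 on HFD (SD, n = 4). *Avpr1b* was 1.49, 3.12, 2.91 and 1.79 in controls on chow, 0.769, 1.79, 1.198 and 1.85 in mutants on chow, 1.85, 2.33, 1.60 and 1.195 in controls on HFD and 1.09, 1.35, 1.93 and 1.78 in mutants on HFD. P357 was lowest here (43.0%), P392 was at 66.8% and P391, the mouse with the most *Pomc*, was at 0.893-fold of the median. Values as low as these rest on few reads. By the step between low values, at which 77.1% to 89.0% of the low values tested in a library lay within 0.15 reads of a whole read (30.0% by chance), *Crhr1*, which has 1 annotated transcript, carried about 104 to 278 reads per library. Counted on their longest transcripts, *Avpr1b* would have carried about 46.5 to 222 reads, and *Pax7* in P357 about 11.9.

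To separate the intermediate lobe signal from change in corticotrophs, the mean of *Pax7* and *Pcsk2* on the log2(value + 0.5) scale was taken as a measure of the intermediate lobe in each mouse. It was 1.43 in P357, 2.84 in P392, 5.52 in P391 and between 4.06 and 5.13 in the other 13 mice. Across the 16 mice *Pomc* followed it closely, with Pearson's r = 0.982 and Spearman's rho = 0.897 (permutation test with 100000 resamples, p = 1e-05 for r, the smallest these can give, and 2e-05 for rho, 2e-05 and 5.33e-05 after adjustment over 8 relations). Without P357 and P392, the mice farthest from the median of the measure, r was 0.925, and without P391 as well, a choice made after the values were seen, it was 0.879. The relation held within the groups, where r of the deviations from the group means was 0.983, and in each range of animal numbers (0.995 in the 6 mice with lower numbers and 0.981 in the 10 with higher numbers). *Pax7* and *Pcsk2* also followed each other (r = 0.965, and 0.880 without P357 and P392). The measure was chosen with the low values of P357 and P392 known, so that p-values against it, here and below, are a description. The permutations also took no account of the 4 groups.

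*Tbx19*, which both cell types need, and the receptor genes *Crhr1* and *Avpr1b* gave lower values of r. For *Tbx19* against the same measure, r was 0.653 and rho 0.421 (permutation p = 0.00495 and 0.106, adjusted 0.0066 and 0.142), but r was 0.241 without P357 and P392, so that this correlation rested on those mice. *Tbx19* against *Pomc* gave an r of 0.674 and a rho of 0.488 (adjusted permutation p = 0.00566 and 0.0918). Without P357 and P383 r was 0.478, and without P357, P391 and P392 r was 0.136. *Crhr1* (r = -0.026, rho = -0.115, adjusted permutation p = 0.922 and 0.671) and *Avpr1b* (r = 0.454, rho = 0.144, adjusted permutation p = 0.0928 and 0.671, r = -0.295 without P357 and P392) did not follow it at this number of mice. The ratio of *Pomc* to *Tbx19* ran from 121.5 in P357 to 1030 in P341, a mutant on HFD. In the 14 mice other than P357 and P392 it was 264 to 1030. The ratio of *Pomc* to *Pax7* ran from 1811 to 12541 (P357) over the 16 mice. In the same 14 mice it was 1811 to 3125, and it was 2958 in P392.

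**Figure D2:**
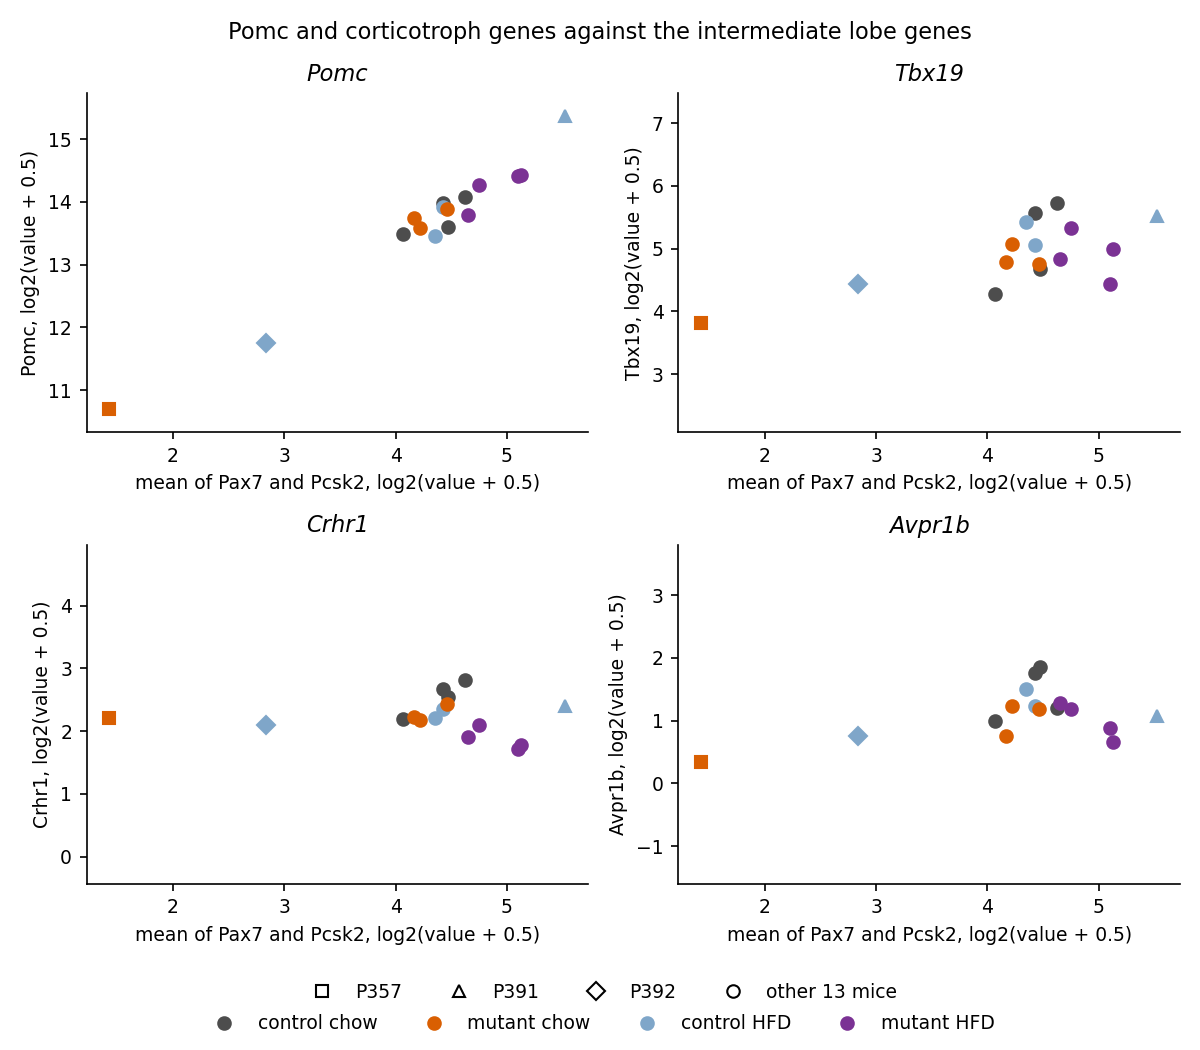
Log2(value + 0.5) of *Pomc*, *Tbx19*, *Crhr1* and *Avpr1b* against the mean of *Pax7* and *Pcsk2* on the same scale, 1 point per mouse, with y axes of equal length and colours for the 4 groups. The *Pomc* points lie close to a line (r = 0.982), those of *Tbx19* scatter more widely (r = 0.653), and *Crhr1* is level (r = -0.026).

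The slopes were also estimated within groups with limma, a linear model with moderated variances fitted to all 14345 genes that had a mean of at least 1, with Benjamini-Hochberg adjustment over those genes. A rise of 1 in the measure went with a rise of *Pomc* by 1.16 (standard error 0.07, adjusted p = 5.31e-07 from limma), and the slopes of 738 genes (5.14%) passed the threshold of 0.05. The slope of *Tbx19* was 0.40 (standard error 0.12, adjusted p = 0.061 from limma), that of *Avpr1b* 0.20 (0.11, adjusted p = 0.277 from limma) and that of *Crhr1* 0.07 (0.07, 95% interval -0.07 to 0.21, adjusted p = 0.543 from limma). Without P357 and P392 the slope of *Pomc* was 1.32 (0.19, adjusted p = 0.0578 from limma, where 2 genes, 0.0139%, passed), that of *Tbx19* 0.36 (0.35), that of *Crhr1* 0.18 (0.19) and that of *Avpr1b* -0.20 (0.30). Over the 16 mice the 95% interval of the *Pomc* slope (1.01 to 1.32) did not overlap that of *Crhr1*. Nor did it overlap those of *Tbx19* (0.15 to 0.64) and *Avpr1b* (-0.03 to 0.43). Over the 14 mice it was 0.91 to 1.74, against -0.22 to 0.59 for *Crhr1* and -0.84 to 0.44 for *Avpr1b*. The interval of *Tbx19* over the 14 mice (-0.40 to 1.12) overlapped that of *Pomc*.

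Markers that were not among the 6 genes were compared in the same 3 mice. Of 6 melanotroph markers other than *Pax7* and *Pcsk2*, 6 in P357 and 5 in P392 lay below all of the other 13 mice, where 28.2% and 9.88% of all genes tested did so. In P391, 2 of 6 lay above them, against 7.16% of all genes. *Oacyl*, an acyltransferase gene, was 1.61 in P357, 9.23 in P392 and 91.0 in P391 (28.1 to 76.3 in the other 13), and *Gulo*, a vitamin C synthesis gene, was 0.0928, 1.09 and 10.6 (4.56 to 10.5). The 6 markers summed to 11.9 in P357, 31.5 in P392, 154 in P391 and 86.8 to 156 in the other 13 mice. Of 6 corticotroph markers other than *Crhr1* and *Avpr1b*, 2 in P357 and 1 in P392 lay below the other 13, and their sums (24.1 in P357, 17.4 in P392 and 15.6 in P391) were inside the range of the other mice (12.2 to 28.2). *Tnnt1*, the most abundant of them, was 10.4 in P357 and 9.45 in P392 (6.48 to 15.1 in the other 13). In P357, *Tnni3* was above the other 13 mice (12.2, against 1.46 to 9.63). *Egr4* (0.230, against 0.411 to 4.82) and *Cdh8* (0.435, against 0.969 to 1.56) were the markers below them. The sum in P357 thus came mostly from *Tnnt1* and *Tnni3*, and the markers did not move as a set. Of 5 posterior lobe markers, 4 were below the other 13 in P357 and 4 in P392, with 2 listed at 0 in each, and the sodium channel gene *Scn7a* was 0.286 and 0.173 (2.81 to 4.05). *Col25a1*, the most abundant of that list, was 13.9 in P357 and 15.3 in P392, inside the range of the other mice (6.06 to 18.2). The 4 red blood cell markers in P357 were all above the other 13 mice, where 20.1% of all genes tested were. Many genes of this library thus lay outside the range of the other 13, in both directions.

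**Figure D3:**
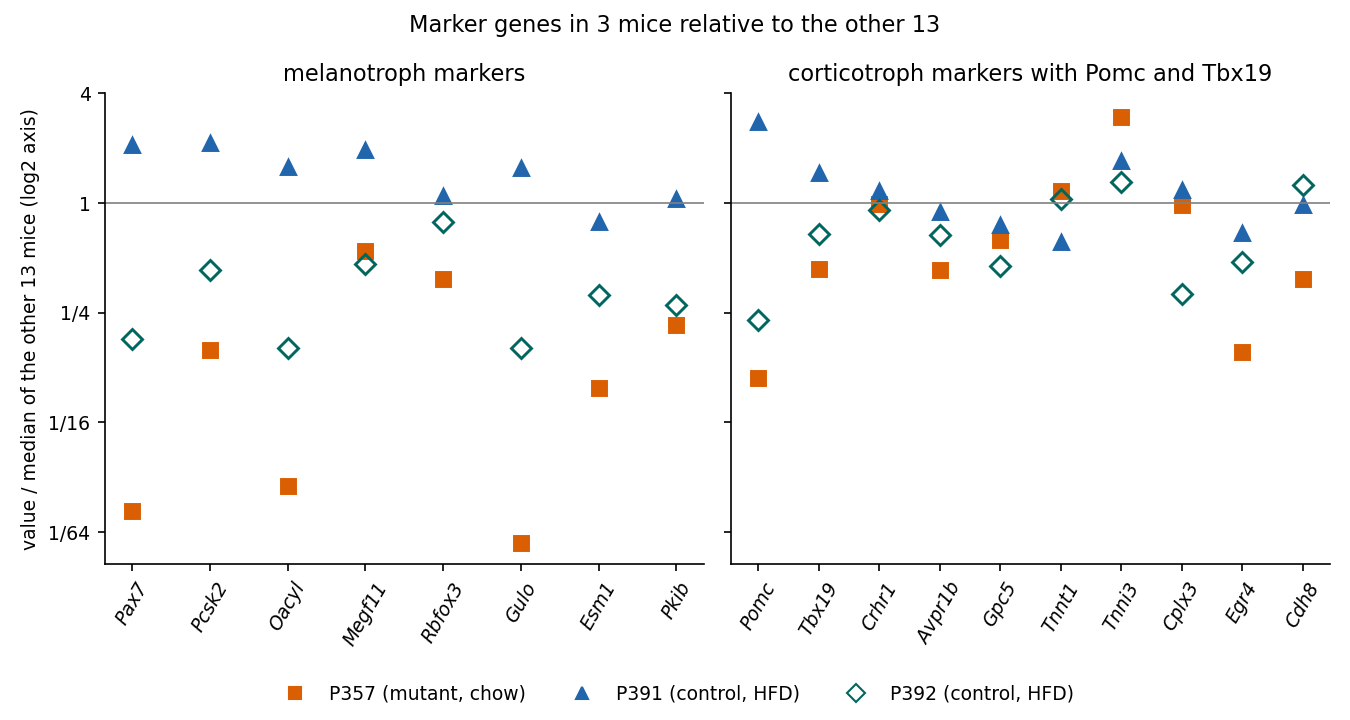
Value of each marker in P357, P391 and P392 divided by the median of the other 13 mice (log2 axis, line at 1). Melanotroph markers (left) lie below 1 in P357 and P392, whereas corticotroph markers (right) fall on both sides of 1, and *Pomc* lies with the melanotroph markers, at 0.109 in P357 and 2.78 in P391.

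The groups were then compared for each gene. At an adjusted p under 0.05 (limma), 0 of the 6 genes passed in any of the 7 comparisons, which were mutant against control on each diet and over both, HFD against chow in each genotype and over both, and the interaction. The share of all genes that passed was 1.84% between genotypes on chow, 0.00% between genotypes on HFD, 0.00% between diets in mutants and in controls, 0.00% for the interaction, 6.54% between genotypes over both diets and 0.00697% between diets over both genotypes. At an unadjusted p under 0.05, *Avpr1b* passed between genotypes on chow (as did 19.9% of all genes), *Crhr1* between genotypes on HFD (10.2%), over both diets (22.7%) and between diets over both genotypes (5.11%), *Pcsk2* (higher on HFD, as were 2.55%) and *Crhr1* (lower, as were 2.45%) between diets in mutants, and none between diets in controls (4.13%) or for the interaction (4.20%). The values of 2 groups did not overlap for 3 genes between diets in mutants, where *Pax7* and *Pcsk2* were higher on HFD (1.88% of all genes) and *Crhr1* lower (1.44%), for 1 between genotypes on HFD (5.30%), and for none between genotypes on chow (10.6%) or between diets in controls (2.61%).

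*Pax7* and *Pcsk2* were both higher in mutants on HFD than in mutants on chow, in 16 of 16 pairs of mice. The log2 differences were 1.36 for *Pax7* (standard error 0.65) and 1.31 for *Pcsk2* (0.51), each with a two-sided exact permutation p of 0.0286, the smallest that 4 mice against 4 allow, and an adjusted p of 0.813 from limma. *Pomc* was higher by 1.25 (0.69, adjusted p = 0.813 from limma) and in 15 of 16 pairs (exact permutation p = 0.0571). P357 is 1 of the 4 mutants on chow. Without P357 and P392 the differences were smaller, 0.57 for *Pax7* (0.25), 0.68 for *Pcsk2* (0.25) and 0.49 for *Pomc* (0.35), each with an adjusted p of 1.00 from limma. With the mean of *Pax7* and *Pcsk2* in the model, the difference of *Pomc* between diets in mutants was -0.30 (0.19, adjusted p = 1.00 from limma).

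In controls, HFD gave no common direction. The log2 difference was -0.17 for *Pomc*, -0.29 for *Pax7* and 0.07 for *Pcsk2* (adjusted p = 0.999 from limma for each), and P391 and P392, which bracket all other mice but P357, are both in this group. Without P357 and P392 the differences of *Pomc* and *Pax7* turned to 0.46 and 0.28. *Tbx19* differed by 0.05 (adjusted p = 0.999 from limma). The interaction, which asks whether HFD acted differently in mutants and controls, was 1.42 for *Pomc*, 1.66 for *Pax7* and 1.24 for *Pcsk2*, each with an adjusted p of 0.924 from limma.

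Between genotypes on chow, *Pomc* was lower in mutants by 0.81 on the log2 scale, with a standard error of 0.69 (limma adjusted p = 0.525, exact permutation p = 0.4). Without P357 and P392 the difference was -0.05 (0.35), and with the *Pax7* and *Pcsk2* mean in the model it was 0.15 (0.17). *Pax7* (-1.05) and *Pcsk2* (-0.61) also shrank without these mice, to -0.25 and 0.02. *Tbx19* differed by -0.45 (0.34, adjusted p = 0.469 from limma) and by -0.19 without P357 and P392. With the range of animal numbers (P339 to P359 or P381 to P392) in the model, the differences were larger instead, at -1.25 for *Pomc*, -1.50 for *Pax7*, -0.94 for *Pcsk2*, -0.82 for *Tbx19* and -0.72 for *Avpr1b* (adjusted p between 0.130 and 0.300 from limma). The lower range held P356, P358 and P359 of the controls on chow and only P357 of the mutants on chow. On HFD it held the mutants P339 and P341 and no control. Range and group are thus partly confounded, and these values hang on few mice. *Avpr1b* was lower by 0.57 (0.27, unadjusted p = 0.0485, adjusted p = 0.248 from limma) and by 0.39 without P357 and P392, with 3 of 16 pairs higher in the mutant. Between genotypes on HFD, *Pomc* differed by 0.60 (0.69, adjusted p = 0.828 from limma), and by -0.02 (0.35) without P357 and P392.

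*Crhr1*, the receptor for corticotropin-releasing hormone, had the smallest p of the 6 genes between genotypes over both diets and between diets over both genotypes. Over both diets it was lower in mutants by 0.34 on the log2 scale (standard error 0.11, 95% interval -0.58 to -0.11, adjusted p = 0.0719 from limma), which is 0.788-fold, and the difference was -0.30 on chow (0.16, adjusted p = 0.298 from limma) and -0.39 on HFD (0.16, adjusted p = 0.402 from limma). On HFD the groups did not overlap (exact permutation p = 0.0286), with 3.78 the lowest control and 3.75 the highest mutant. An exact permutation of the genotypes within each diet gave p = 0.00367 (4900 arrangements, smallest possible p = 0.000408). The adjusted p crossed the threshold in some settings, to 0.0396 without P357 and P392, 0.0404 without P392 alone, 0.0241 without P356, a control on chow with the lowest *Crhr1* of that group, 0.0391 after quantile normalization and 0.0464 without the trend in the variance (limma). It was between 0.0581 and 0.0917 in the other settings that kept the 16 mice and tested the gene, which a filter at a mean of 5 left out, and between 0.0664 and 0.154 when each of the other 14 mice was left out. Without P357, P391 and P392 it was 0.0901, with a log2 difference of -0.34.

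*Crhr1* was also lower on HFD. Over both genotypes the log2 difference was -0.34 (standard error 0.11, 95% interval -0.57 to -0.11, unadjusted p = 0.00721, adjusted p = 0.820 from limma), with an exact permutation p of 0.00449 for diets exchanged within each genotype. In mutants it was -0.39 (0.16, adjusted p = 0.813 from limma), the groups did not overlap (exact permutation p = 0.0286), and 0 of 16 pairs were higher on HFD. In controls it was -0.29 (0.16, adjusted p = 0.998 from limma), with 3 of 16 pairs higher on HFD. The interaction was -0.10 (0.22, 95% interval -0.56 to 0.37), so that a difference in the effect of diet between genotypes was not detectable at this number of mice. The low values of mutants on HFD enter each of the *Crhr1* comparisons other than that of genotypes on chow and that of diets in controls. With the *Pax7* and *Pcsk2* mean in the model, the genotype difference was -0.34 (adjusted p = 0.0624 from limma) and the diet difference -0.38 (adjusted p = 0.488 from limma).

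**Figure D4:**
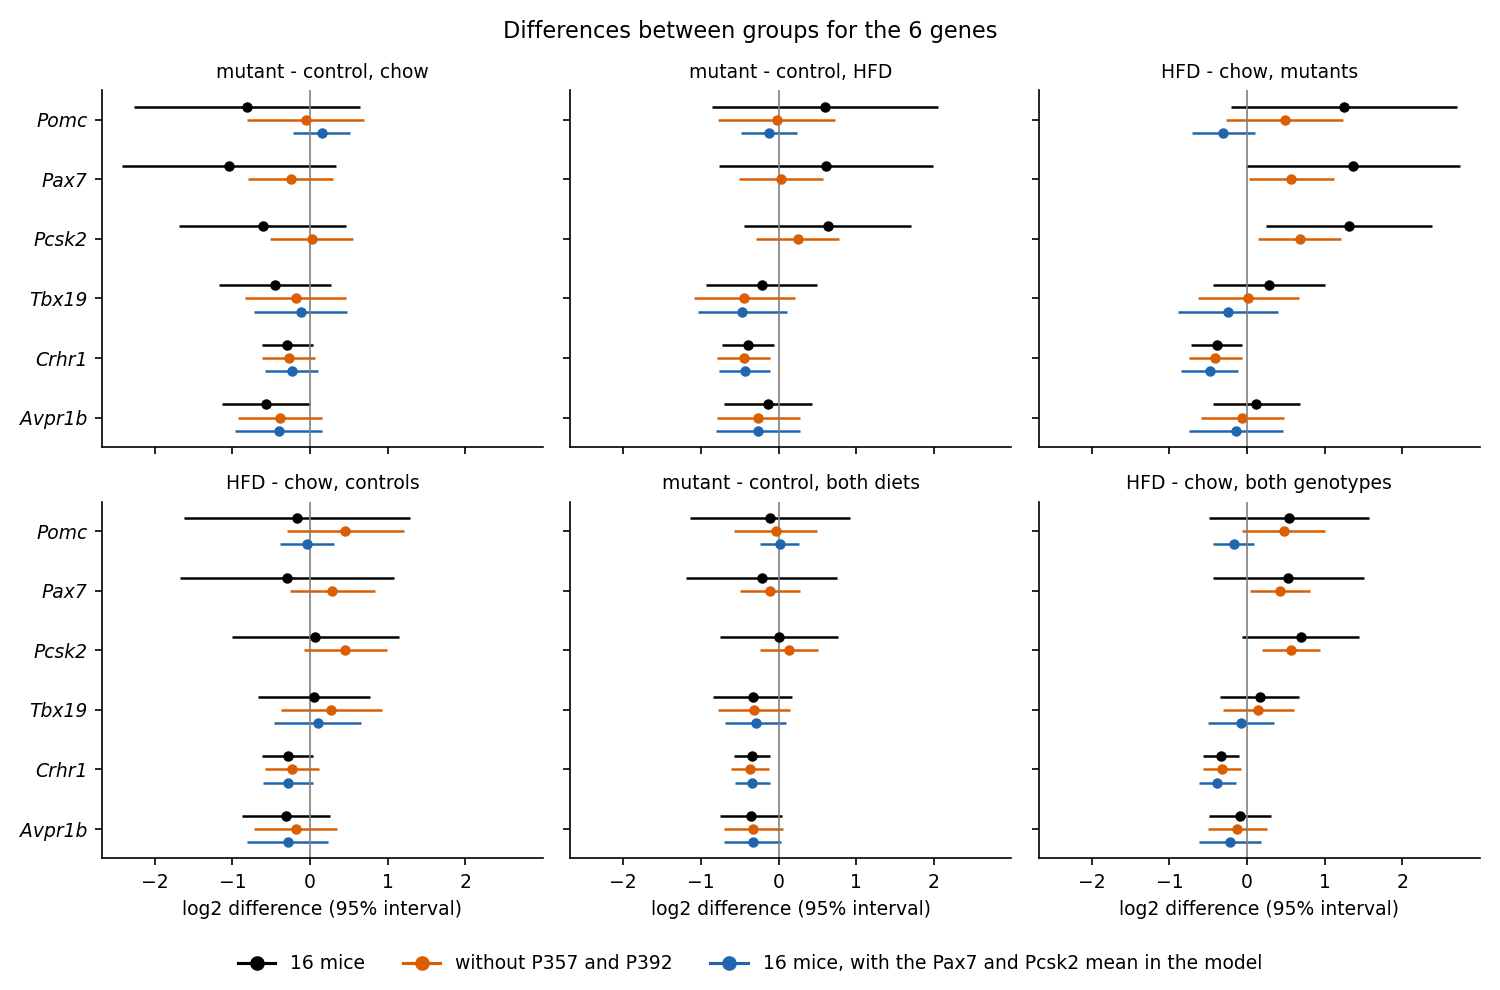
Log2 differences between groups with their 95% intervals from limma, for the 16 mice (black), without P357 and P392 (orange) and with the mean of *Pax7* and *Pcsk2* in the model (blue, not defined for those genes). The intervals of *Pomc*, *Pax7* and *Pcsk2* are narrower without P357 and P392, and the difference of *Crhr1* between genotypes over both diets is -0.34, -0.36 and -0.34 in the 3 analyses.

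Few other genes of the same pathways passed the test. Of 13 *Pomc* transcription factors, 7 genes of POMC processing, 8 melanotroph markers and 6 corticotroph markers that were tested, 0 passed in any comparison at an adjusted p under 0.05 (limma). Over both diets, 3 of the 13 factors were lower and 1 higher in mutants at an unadjusted p under 0.05, as were 3 and 1 of the 7 processing genes, 0 and 0 of the 8 melanotroph markers and 1 and 0 of the 6 corticotroph markers, and 22.7% of all genes passed this threshold in either direction. *Scg5*, which encodes the chaperone of the *Pcsk2* product, was 1530 ± 79.1 (SD, n = 4) in controls and 1338 ± 47.1 in mutants on chow, and 1499 ± 86.6 and 1353 ± 52.9 on HFD (log2 difference over both diets -0.17, adjusted p = 0.115 from limma). *Pcsk1*, the convertase gene that corticotrophs use, was 39.4 ± 6.08 and 44.0 ± 9.13 on chow and 39.6 ± 5.39 and 51.0 ± 8.14 on HFD (0.25, adjusted p = 0.209 from limma). The ratio of *Pcsk2* to *Pcsk1* was 0.352 in P357, 0.724 in P392, 4.07 in P391 and 1.31 to 2.56 in the other 13 mice.

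In the lists of CRH and vasopressin signalling and of glucocorticoid feedback, 1 gene of each rose in mutants over both diets (limma), 1 of 13 and 1 of 10 genes tested, which is near the share of all genes that passed (6.54%). In the former this was *Lifr*, a receptor for leukaemia inhibitory factor, a cytokine that stimulates corticotrophs (log2 difference 0.50, standard error 0.11, adjusted p = 0.0186 from limma). In the latter it was *Hsd11b1*, the enzyme that regenerates active glucocorticoid (0.62, 0.14, adjusted p = 0.0184 from limma). Its level was 18.9 ± 3.82 and 28.3 ± 6.21 in controls and mutants on chow and 17.1 ± 5.28 and 26.7 ± 3.40 on HFD (SD, n = 4). The dopamine receptor gene *Drd2*, which lactotrophs also express, did not overlap between genotypes on chow, as for 10.6% of all genes tested. Its level was 62.9 ± 7.67 in controls and 33.0 ± 14.4 in mutants (-1.06, adjusted p = 0.110 from limma). It was 12.4 in P357 and 24.7 in P392. The part of P357 in the *Drd2* difference was not tested. The median log2 difference over both diets was -0.04 for CRH and vasopressin signalling and 0.06 for glucocorticoid feedback, against 0.00 over all genes tested. Between diets, 0 genes of these lists passed.

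Some markers of other cells differed between genotypes. Over both diets, 3 of 5 endothelial markers (*Pecam1*, *Cdh5* and *Plvap*), 1 of 5 immune markers (*C1qa*), 1 of 3 stem and folliculostellate markers tested (*Aldh1a2*) and 1 of 5 posterior lobe markers (*Col25a1*, also on chow alone) rose in mutants (limma, adjusted p between 0.00471 and 0.0466), where 6.54% of all genes passed in either direction. The other posterior lobe markers did not pass. On chow the median log2 difference of the 5 was -0.64, with -1.11 for *Rax*, -0.69 for *Scn7a*, -0.64 for *Nkx2-1* and 0.02 for *Lhx2*. These differences include P357, in which 4 of the 5 markers lay below the other 13 mice. *Scn7a* was 0.286 in P357 and 2.81 to 4.05 in those 13. Between genotypes on chow, *Nkx2-1* did not overlap, as for 10.6% of all genes tested, whereas *Rax* and *Scn7a* did. The differences were not computed without P357, so that the part of this mouse in them was not tested. The summed endothelial markers were 101 to 123 in controls and 154 to 206 in mutants on chow, and 94.3 to 183 and 149 to 164 on HFD. The summed immune markers were 30.0 to 44.5 and 53.2 to 134 on chow, and 26.1 to 88.4 and 52.3 to 113 on HFD. The 4 red blood cell markers summed to 548 to 3062 and 2136 to 4409 on chow and 749 to 1700 and 1225 to 2280 on HFD, with 0 passing. Of the lactotroph, somatotroph, gonadotroph and thyrotroph markers (2, 2, 3 and 2 genes) 0 passed in any comparison. The part of these cells in the lower *Crhr1* of mutants was not tested.

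The genes most alike in pattern to each of the 6 were ranked by Pearson's r on the log2 scale over the 16 mice, as a description. For *Pomc* they were *Sntg2* (0.951), *Nell1* (0.945), *Oacyl* (0.942), *Hopx* (0.923) and *Gpr6* (0.920), and r over the 14 mice without P357 and P392 was between 0.503 and 0.858. For *Pax7* they were *Oacyl* (0.981), *Etv1*, *Sntg2*, *Gpr6* and *Gulo* (0.939), and for *Pcsk2* they were *Etv1* (0.955), *Kcnh1*, *Oacyl*, *Sntg2* and *Rspo4* (0.901). *Oacyl* and *Sntg2* stood among the 5 for all 3 genes, and each gene of the 3 lists was lowest in P357 or P392. *Gpr6*, a G protein-coupled receptor gene, was 0.0815 in P357, 0.313 in P392, 9.04 in P391 and 4.44 to 8.12 in the other 13 mice. For *Tbx19* the 5 were *Ky* (0.876), *Arhgef16*, *Rasgrp1*, *Wrap73* and *Shisal1* (0.858), for *Crhr1* they were *Meltf* (0.935), *Wnt9a* (0.913), *Med20*, *Cldn9* and *Mapt* (0.849), and for *Avpr1b* they were *Dbt* (0.913), *Fhod3*, *Stx1a*, *Zfp212* and *Gspt2* (0.865). None of these 15 genes was among the 5 of *Pomc*, *Pax7* or *Pcsk2*. For *Crhr1* the correlations were as high without P357 and P392 (0.935 for *Meltf*, 0.913 for *Wnt9a* and 0.859 to 0.881 for the others), so that this pattern did not rest on those mice.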

How the data were processed

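Per the methods and the labels, the authors aligned reads to the mouse transcriptome (mm10) with kallisto and tested genes with sleuth, and versions, annotation release, gene filter and use of strand are not given in the sources used here. As deposited, each mouse has 1 column of normalized signal, scaled by transcript length and library, so that no counts were tested and depth could only be estimated from the steps between low values.

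Values were taken as log2(value + 0.5). Genes with a mean of at least 1 (14345 of 17362) were fitted together in limma 3.58.1 (R 4.3.3) with a trended variance over the 4 groups, which share 1 estimate of the spread, and p-values were adjusted by Benjamini-Hochberg over all of them. The fit was tested on simulated data. A fold change on this scale understates that of low genes. For each of the 6 genes, group means of the log2 values were also compared by two-sided exact permutation of the mice (scipy 1.17.1). Positions are from GENCODE on GRCm38. The 6 genes, the marker and pathway lists and the use of *Pax7* and *Pcsk2* as a lobe measure were chosen with earlier results of these data known, including the low values of P357 and P392. Named list genes are those past the threshold or among the 4 most abundant of a list, and other markers were named after their values were seen. Alternatives were the filter, pseudocount, scaling, variance model, groups fitted, range of animal numbers, lobe measure, threshold and mice left out. The list of dopamine and GABA input to melanotrophs is not reported here, apart from *Drd2*.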

Additional observations from a re-analysis of the deposited data

Results flagged for a closer look

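In the mutants on chow, P357 stood apart from the other 3 mice by Dixon's test at the 95% level in 3 genes. *Pomc* was 1654 in P357 and 12270 to 15105 in the others (gap over range 0.906). *Pax7* was 0.132 against 4.58 to 6.32 (0.876), and *Pcsk2* was 10.99 against 59.3 to 70.7 (0.904). Chance finds about 1 in 20 groups by this test. The low values of this mouse were known when the genes were chosen, and the 3 genes follow each other, so that these values are a description and not 3 independent findings. P391 and P392, which lie on opposite sides of their group, were not found by this test.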

How the results depend on the processing

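Of the log2 differences of the 6 genes, 550 kept their direction and side of the threshold under the alternatives that keep or jointly leave out mice and 646 when 1 mouse was left out, while 31 and 24 turned and 3 and 2, all of *Crhr1* between genotypes over both diets, crossed the threshold. Every group mean of the 6 genes moved by less than its spread under median scaling. The differences that turned had adjusted p-values (limma) far above the threshold, and the cause was not tested.

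With the *Pax7* and *Pcsk2* mean as a covariate, *Pomc* turned to 0.15 between genotypes on chow, -0.12 on HFD, 0.013 over both diets, -0.30 between diets in mutants, -0.17 over both genotypes and -0.27 for the interaction, *Tbx19* to -0.25 between diets in mutants, -0.075 over both genotypes and -0.34 for the interaction, and *Avpr1b* to -0.14 between diets in mutants. Without P357 and P392, *Pcsk2* turned to 0.02 between genotypes on chow, *Pomc* to -0.022 between genotypes on HFD and, in the controls, to 0.46 between diets, *Pax7* to 0.28 between diets in controls, *Avpr1b* to -0.058 between diets in mutants and *Tbx19* to -0.26 for the interaction. Without P391 as well, a choice made after seeing the data, *Pcsk2* was 0.02 between genotypes on chow, *Avpr1b* -0.058 between diets in mutants, *Tbx19* -0.16 for the interaction, and *Pomc* 0.24 and *Pax7* 0.079 between genotypes over both diets. With the lower or higher animal numbers as a term, *Tbx19* turned to 0.15 and *Avpr1b* to 0.013 between genotypes on HFD, *Tbx19* to -0.50 and *Pcsk2* to -0.43 between diets in controls, *Tbx19* to -0.015 between diets over both genotypes and *Crhr1* to 0.13 for the interaction. Scaled to the sum without *Prl* and *Gh*, *Tbx19* was -0.0055 between diets in controls, *Crhr1* 0.020 for the interaction and *Pcsk2* -0.068 between genotypes over both diets, where quantile normalization gave -0.031.

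With each mouse left out in turn, the ranges were -0.86 to 0.02 for *Pcsk2* between genotypes on chow, -0.022 to 1.18 for *Pomc* between genotypes on HFD and -0.058 to 0.24 for *Avpr1b* between diets in mutants. Between diets in controls they were -0.75 to 0.46 for *Pomc*, -0.74 to 0.28 for *Pax7*, -0.32 to 0.45 for *Pcsk2* and -0.21 to 0.28 for *Tbx19*. For the interaction they were -0.18 to 0.024 for *Crhr1* and -0.032 to 0.49 for *Tbx19*, and between genotypes over both diets -0.42 to 0.27 for *Pomc*, -0.51 to 0.18 for *Pax7* and -0.18 to 0.33 for *Pcsk2*.

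The number of genes past the threshold (limma) moved more. Between genotypes on chow it was 264, and 151 with a mean of at least 5, 123 without *Prl* and *Gh*, 42 with the lobe covariate, 961 without P357 and P392, 938 without P391 as well, 20 at 0.01, and 33 to 826 with 1 mouse left out. Between genotypes on HFD it was 0, and 1 with the lower filter, with no filter or without the variance trend, 39 with the lobe covariate, 1064 without P357 and P392, 550 without P391 as well, and 0 to 653 with 1 mouse left out (653 without P392). Over both diets it was 938, and 610 with a mean of at least 5, 2668 without P357 and P392, 1963 without P391 as well, 186 at 0.01, and 441 to 1931 with 1 mouse left out, and of the 6 genes 0 passed, or 1 (*Crhr1*) after quantile normalization, without the trend, without P357 and P392, and 0 to 1 with 1 mouse left out. Between diets in mutants it was 0, and 2 with only the groups compared and 0 to 1 with 1 mouse left out. In controls it was 0, and 1 without *Prl* and *Gh* or without P357 and P392, and 0 to 6 with 1 mouse left out, and for the interaction 0 to 1. Between diets over both genotypes it was 1, and 0 with median scaling, without the trend or at 0.01, 2 with the number range or the lobe covariate, and 0 to 6 with 1 mouse left out.

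No paired analysis was possible because the labels carry animal numbers but no replicate number shared between groups. The deposited values hold no counts, and the depth behind each value is an estimate.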
